A study of Mus musculus with 26 samples.

Results

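Nanos2, Nanos3, Dnd1, Dnmt3l, Nodal, Lefty1, Lefty2 and Tdgf1 were followed through RNA-seq libraries of mouse XY gonads at E13.5, the embryonic day at which XY germ cells have begun to leave the bipotential state. They are 8 genes, of 57186 in the deposited count table, that mark or steer the male fate of fetal germ cells. They were chosen by name, and each was located by its Ensembl identifier, under which Tdgf1 is listed as Cripto. The gonads were wild type (WT, 3 samples), carried a Fgf9 deletion named Δ306 (3 samples), Δ225 (6), Δ104 (4) or Δ93 (6), or were a Meis1 knockout (Meis1 KO, 4), 26 samples in all. The gonads were dissected away from the mesonephros, and their polyadenylated RNA was made into libraries. The labels give no boundaries for the deletions, no zygosity, strain, parents or litters, and no promoter or cell type for the Meis1 knockout. They number the WT and Δ306 samples as replicates and the others as biological replicates, naming no animal or pool, so p-values measure the spread between these samples, which may be technical. The design text of the series names only WT and Δ306, and the labels give no dates. If the other groups were prepared at another time, that and the genotype cannot be told apart in their comparisons with WT.

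The 8 genes fall into an RNA and DNA branch and a signalling branch. NANOS2 and NANOS3 are RNA-binding proteins that bring target mRNAs to the CCR4-NOT deadenylase. NANOS2 is made in XY germ cells after sex determination and holds back meiosis there, and DND1 is its RNA-binding partner. DNMT3L is the catalytically inactive cofactor of the de novo DNA methyltransferases in fetal male germ cells. NODAL is a secreted ligand of the TGF-beta family that signals through activin receptors and SMAD2/3. TDGF1 (Cripto) is its co-receptor, and LEFTY1 and LEFTY2 are secreted inhibitors that the pathway itself induces. In the fetal testis the pathway is active for a short time in XY germ cells. FGF9, a secreted growth factor of the supporting cells, acts both on those cells and on germ cells.

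Each gene was read in CPM, its counts as a share of the library, with edgeR's TMM factor for library composition. It was also read as counts per 1000 counts of Ddx4, an RNA helicase gene expressed in germ cells of both sexes. In these bulk samples, fewer germ cells and less RNA per germ cell cannot be told apart. A gene was called changed at an adjusted p under 0.05 by edgeR's quasi-likelihood test with Benjamini-Hochberg adjustment over all genes tested. Positive log2 fold changes mean higher in the first-named group.

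The libraries held 11582619 to 53392393 counts in the table of the deletions and 35468633 to 51732897 in the Meis1 table. WT replicate 1 stood apart. It had 170 Ddx4 counts (4.27 CPM), against 81.3 and 139 CPM in WT replicates 2 and 3. The summed level of 5 germ-cell markers was 13.9 CPM in it, against 482 and 720.2 CPM. All 5 markers were still detected. The next lowest Ddx4 levels were 29.2 CPM in Δ104 replicate 3 and 49.7 CPM in Meis1 KO replicate 1. Results against WT are therefore given with and without WT replicate 1. In Δ225, replicates 4 to 6 were alike and stood apart from replicates 1 to 3. Their markers of Sertoli cells, the supporting cells of the testis, summed to 1906, 1955 and 1541 CPM, against 454, 688 and 584. Fgf9 was at 9.21 to 9.85 CPM in WT, 2.17 to 2.94 in Δ306, 2.30 to 4.75 in Δ93, 2.72 to 6.98 in Δ104 and 3.69 to 16.5 in Δ225. It was called lower than in WT in Δ306 (−1.94 log2 units, adjusted p 0.0148) and Δ93 (−1.63, adjusted p 0.00532), and not in Δ104 (−0.98, adjusted p 0.259) or Δ225 (−0.44, adjusted p 0.535) by edgeR. Meis1 had 80 counts in the 4 KO libraries together and 9258 in the 3 WT libraries.

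On GRCm38, in the GENCODE annotation, Nanos2 spans positions 18987400 to 18988962 of chromosome 7 on the plus strand and has 1 exon. Nodal spans 61417972 to 61425338 of chromosome 10 (plus, 3 exons). Tdgf1 spans 110939603 to 110946158 of chromosome 9 (minus), Lefty1 180935022 to 180938400 and Lefty2 180893108 to 180899103 of chromosome 1 (both plus). Nanos3 spans 84173731 to 84185217 of chromosome 8 (minus) and Dnmt3l 78041947 to 78063622 of chromosome 10 (plus). Some of their counts are uncertain. Lefty1 shares 17.9% of its 50-base stretches with other genes, mostly Lefty2. Lefty2 shares 12.0%, mostly with Lefty1, and Tdgf1 8.86%, mostly with the pseudogene Tdgf1-ps1. Nanos2, Dnd1 and Dnmt3l overlap genes on the other strand (Gm45058, Wdr55 and Aire), and whether the counting used strand is not given in the sources used here.

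The bases before the start of 3 genes, from both branches, are shown because FOXH1, the DNA-binding partner of SMAD2/3, is known to drive NODAL targets. They come from RefSeq (GRCm38.p6), from which entries for 5 of the 8 genes were used, and are written 5′ to 3′ on each gene's strand. Dnd1 was left out of this search. Capitals mark the letters AATNNACA or, on the other strand, TGTNNATT, a FOXH1 core.
Nanos2, chr7:18987274-18987399, plus strand: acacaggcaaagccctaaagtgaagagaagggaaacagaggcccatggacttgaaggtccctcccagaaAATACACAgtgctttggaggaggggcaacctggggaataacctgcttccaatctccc
Nodal, chr10:61417722-61417971, plus strand: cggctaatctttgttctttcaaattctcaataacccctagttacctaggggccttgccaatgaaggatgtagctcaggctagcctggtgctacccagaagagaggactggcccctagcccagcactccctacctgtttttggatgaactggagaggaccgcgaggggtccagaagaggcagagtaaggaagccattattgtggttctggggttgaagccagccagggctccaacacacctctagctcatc
Tdgf1, chr9:110946159-110946408, minus strand: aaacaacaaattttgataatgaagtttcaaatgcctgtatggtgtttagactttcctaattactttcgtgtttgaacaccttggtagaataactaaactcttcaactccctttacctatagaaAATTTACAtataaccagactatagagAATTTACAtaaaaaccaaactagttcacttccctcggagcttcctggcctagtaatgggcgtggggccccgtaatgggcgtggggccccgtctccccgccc
The core occurred 1 time in the Nanos2 bases, 2 times before Tdgf1 and 0 times in the 250 bases before Nodal. The other entries, 1 for Nanos3 and 3 for Dnmt3l, held 0. It occurred in 10.9% of 32851 mouse promoters of 250 bases. The 126 bases shown for Nanos2 are the part of its RefSeq window of 250 that lies before the gene start given above, and the whole window also held 1. The SMAD palindrome GTCTAGAC occurred in 0.167% of the promoters and in 0 of these entries. These are matches of letters and not measured binding.

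Among the deletions, most calls in these genes fell between Δ225 and Δ93. Nanos2, Nanos3, Nodal, Lefty2 and Tdgf1 were higher in Δ225 than in Δ93, by 1.52 to 7.32 log2 units. Lefty1 pointed the same way without passing the test, Dnd1 differed by 0.51 log2 units (adjusted p 0.479, edgeR), and Dnmt3l had too few counts to be tested. Of the 7 genes tested, 5 were called, all higher in Δ225, where 20.8% of all 22941 genes were called, 9.96% as higher. DESeq2 called 6 of the 7, where it called 25.9% of all genes. Nanos2 passed the filter on low counts, set at 0.272 CPM of the whole library, in 5 Δ225 libraries, 2 WT libraries and 1 Δ104 library, and in no Δ93 or Δ306 library.

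**Figure D1:**
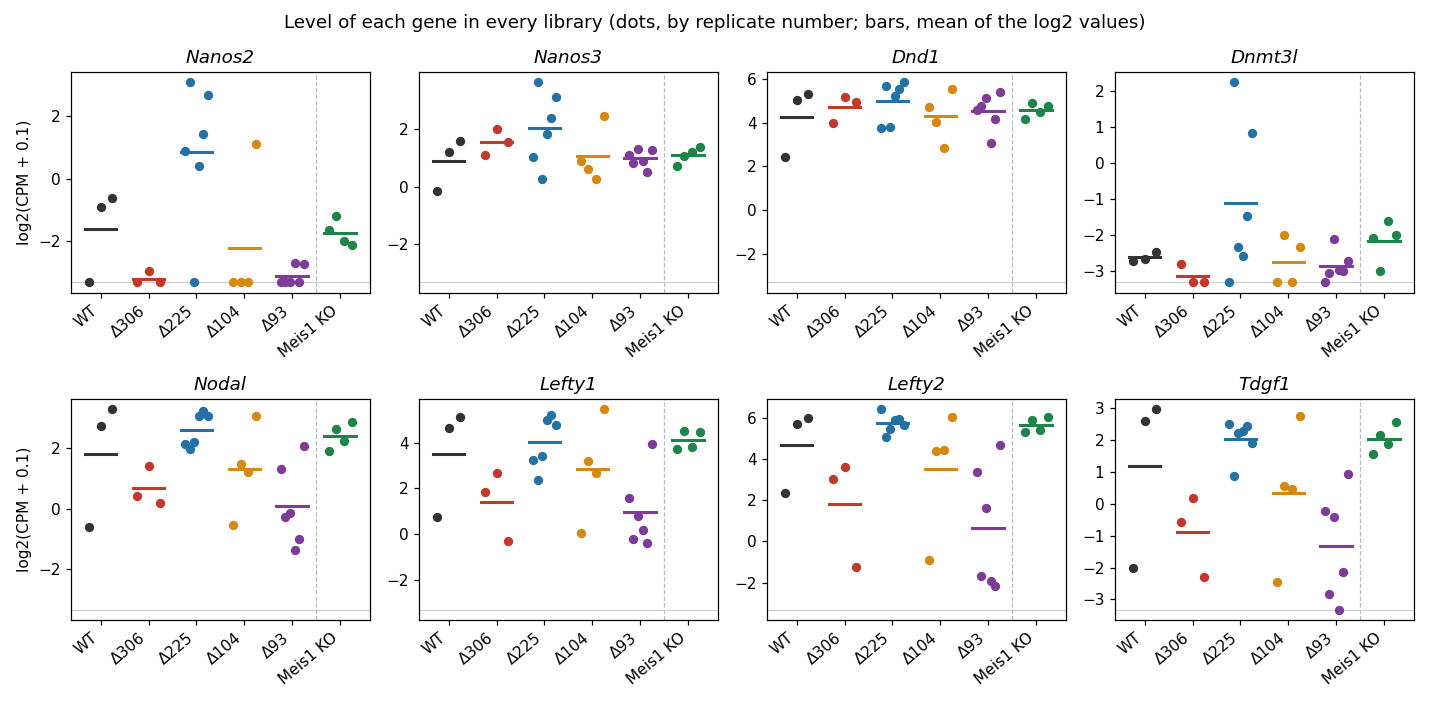
Level of each gene in every library, as log2(CPM + 0.1) on the vertical axis, by group on the horizontal axis; dots are libraries in the order of their replicate numbers and bars are means of the log2 values. Meis1 KO, right of the dashed line, was counted in a separate table. Nodal, Lefty1, Lefty2 and Tdgf1 reach their lowest levels in Δ93, Δ306 and 1 library each of WT and Δ104, and Nanos2 is highest in Δ225 replicates 2 and 6.

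Nanos2 was a rare transcript, at 0 to 2 counts in 14 of the 22 libraries of the deletion table. It had 0, 22 and 21 counts in WT (0, 0.427 and 0.554 CPM). Δ225 held 18, 194, 0, 55, 111 and 256 counts, or 1.76, 8.42, 0, 1.21, 2.60 and 6.25 CPM. In 5 of the 6 Δ225 libraries the level was thus above both WT libraries in which it was detected, and in the other it was at 0. Δ93 had 0, 0, 0, 2, 0 and 2 counts, and Δ306 had 0, 1 and 0. The highest of these 9 libraries was at 0.0531 CPM. Δ104 had 0 counts in replicates 1 to 3 and 42 counts (2.04 CPM) in replicate 4.

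The log2 difference of Nanos2 between Δ225 and Δ93 was 7.32 (SE 1.48, adjusted p 0.00153, edgeR). It was called under all 17 alternatives that tested it, at 6.78 to 8.09. In raw counts, 634 against 4 is a rate 197 times higher in Δ225, with a 95% counting interval of 76.4 to 724. Against Δ306 the log2 difference was 7.79 (SE 2.18, adjusted p 0.0227, edgeR), the 1 call among 7 genes in a comparison where 13.2% of all genes were called, 6.47% as higher. DESeq2 called the same number of members, where it called 18.9% of all genes. That call was lost without any 1 of the Δ306 replicates (adjusted p 0.0738 to 0.113). Against WT, Nanos2 in Δ306 had 1 count against 43, a rate 26.4 times lower (interval 4.50 to 1068), and in Δ93 4 against 43, 18.9 times lower (6.86 to 72.4). Neither log2 fold change was called, at −4.43 (SE 2.30, adjusted p 0.27) and −3.96 (SE 1.60, adjusted p 0.103). The Δ93 value was called with a replicate block, at −5.84 (adjusted p 0.0392). The order of the group means was Δ225 (3.37 ± 3.26 CPM, SD, n = 6), Δ104 (0.511 ± 1.02, n = 4), WT (0.327 ± 0.290, n = 3), Δ93 (0.0173 ± 0.0269, n = 6) and Δ306 (0.00991 ± 0.0172, n = 3). No neighbours in that order differed beyond their spread by edgeR.

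Nanos3, which protects early germ cells of both sexes from death, was detected in every library. It was at 0.804, 2.23 and 2.93 CPM in WT and at 2.06, 3.93 and 2.86 in Δ306. Δ93 libraries ran from 1.33 to 2.36 CPM with a median of 1.89, and Δ225 libraries from 1.11 to 12.4 with a median of 4.33. Δ104 replicates 1 to 4 had 1.78, 1.43, 1.1 and 5.35 CPM. The Δ225 and Δ93 ranges overlapped, and the highest values belonged to Δ225 replicates 2 and 6 (12.4 and 8.62 CPM), the libraries with the most Nanos2. The difference between Δ225 and Δ93 was 1.52 log2 units (SE 0.49, adjusted p 0.0316, edgeR). The call ended without replicate 2 or 6 of Δ225, without replicate 2, 4 or 5 of Δ93, and with the replicate block (0.0729), at adjusted p up to 0.11. In the other 10 comparisons Nanos3 was not called.

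Dnd1 did not follow this pattern. It was at 5.30, 32.5 and 38.9 CPM in WT, 15.9, 35.9 and 30.8 in Δ306, and 8.25 to 42.7 in Δ93 (median 25.6). Δ225 ran from 13.6 to 58.0 CPM (median 41.9) and Δ104 from 7.09 to 46.9. All groups overlapped. Its log2 fold changes against WT were 0.11 in Δ306, 0.01 in Δ93, 0.52 in Δ225 and −0.08 in Δ104, none called, and the first, second and last of these turned sign in some alternatives.

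Dnmt3l was close to undetected outside Δ225. It had 8 counts over the 3 WT libraries, 1 over Δ306, 5 over Δ104 and 11 over Δ93. Δ225 had 193 counts, of which 108 were in replicate 2 (4.69 CPM) and 69 in replicate 6 (1.68 CPM). The other 4 Δ225 libraries had 0, 2, 3 and 11. The Δ225 mean of 1.13 ± 1.85 CPM (SD, n = 6) therefore rests on 2 libraries, the same that held the most Nanos2 and Nanos3. Dnmt3l did not pass the filter on low counts in either table and was not tested. With no such filter it was called higher in Δ225 than in Δ93, by 4.53 log2 units (SE 1.01, adjusted p 0.00425, edgeR), where 8.9% of genes were called. Against Δ306 it was then higher by 6.16 (SE 1.66, adjusted p 0.0293, edgeR), where 4.98% were called. Without any 1 of the Δ306 libraries Dnmt3l passed the filter and was not called against Δ306 (adjusted p 0.0503, 0.114 and 0.122). With no filter it was not called against WT (4.09, SE 1.31, adjusted p 0.318, edgeR). The authors' deposited table does list Dnmt3l as higher in Δ225 than in WT, with a log2 fold change of −4.20 for WT over Δ225 and an adjusted p of 0.0456. It also lists Dnmt3l as higher in Δ225 than in Δ93, Δ306 and Δ104 (adjusted p 3.06e-04, 0.00234 and 0.0481, the authors' DESeq2). The share of all genes called there was not counted. With no filter, edgeR did not call Dnmt3l between Δ225 and Δ104 (adjusted p 0.221).

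Nodal, the ligand, was at 0.553, 6.45 and 9.50 CPM in WT. It was at 1.23, 2.56 and 1.02 CPM in Δ306 and at 2.36, 0.716, 0.802, 0.292, 0.401 and 4.06 CPM in Δ93. Δ225 libraries held 4.20, 3.82, 4.40, 8.12, 9.12 and 8.13 CPM, and Δ104 libraries 0.583, 2.65, 2.21 and 8.03. Every Δ225 library but replicate 2 lay above every Δ93 library, and all of them lay above the 3 Δ306 libraries. How many of all genes were so separated in CPM was not counted. Within Δ225, replicates 4 to 6 lay above replicates 1 to 3. Nodal was higher in Δ225 than in Δ93 by 2.15 log2 units (SE 0.68, adjusted p 0.0298, edgeR). Leaving out replicate 5 of Δ225, or any of replicates 2 to 5 of Δ93, ended the call, at adjusted p up to 0.0683. The order of the means was Δ225 (6.30 ± 2.40 CPM, SD, n = 6), WT (5.50 ± 4.55, n = 3), Δ104 (3.37 ± 3.23, n = 4), Δ306 (1.60 ± 0.833, n = 3) and Δ93 (1.44 ± 1.48, n = 6). No neighbours in that order differed beyond their spread.

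Tdgf1, the NODAL co-receptor gene, was at 0.151, 5.98 and 7.78 CPM in WT and 0.570, 1.04 and 0.106 in Δ306. Δ93 libraries had 0.754, 0.0421, 0.650, 0, 0.125 and 1.84 CPM. Δ225 libraries had 5.66, 1.74, 4.55, 4.83, 5.41 and 3.71. Replicate 2 was the lowest Δ225 library for Tdgf1 as it was for Nodal, and replicate 6 the highest Δ93 library for both. Tdgf1 was higher in Δ225 than in Δ93 by 2.93 log2 units (SE 0.97, adjusted p 0.0368, edgeR), a call that ended when replicate 3 or 5 of Δ225, or any of replicates 2 to 5 of Δ93, was left out (adjusted p up to 0.074).

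Of the inhibitors, Lefty2 was the more abundant. It was at 5.07, 51.8 and 65.1 CPM in WT and 8.03, 12.4 and 0.318 in Δ306. Δ93 libraries had 10.2, 0.211, 2.97, 0.159, 0.125 and 25.4 CPM, and Δ225 libraries 86.7, 33.4, 44.5, 60.5, 62.7 and 51.4. The Δ225 and Δ93 libraries did not overlap, nor did those of Δ225 and Δ306. The share of all genes with such a gap in CPM was not counted. By edgeR, 20.8% and 13.2% of all genes were called in these comparisons. Within Δ93 the level spanned 5, 6 and 10 counts in replicates 5, 4 and 2 and 996 counts in replicate 6. Lefty2 was higher in Δ225 than in Δ93 by 3.12 log2 units (SE 1.1, adjusted p 0.0485, edgeR). This call was at the edge and was lost in 13 of 18 alternatives, among them the removal of any 1 Δ225 library or of any of replicates 2 to 5 of Δ93, at adjusted p up to 0.0901.

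Lefty1 was at 1.56, 25.2 and 35.3 CPM in WT, 3.42, 6.34 and 0.706 in Δ306, and 2.92, 0.758, 1.63, 1.03, 0.652 and 15.5 in Δ93. Δ225 libraries had 9.46, 5.08, 10.7, 32.0, 36.5 and 27.4 CPM. Δ93 replicate 6 was again the exception, above Δ225 replicates 1 to 3, which lay apart from replicates 4 to 6 as for Nodal. The difference between Δ225 and Δ93 was 2.44 log2 units (SE 0.92, adjusted p 0.0644, edgeR) and was not called. It was called without Δ93 replicate 6, at 3.86 (adjusted p 0.00541), by DESeq2 at 2.44 (adjusted p 0.0257) and with the replicate block at 2.76 (adjusted p 0.0371).

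The count of called genes between Δ225 and Δ93 moved with single libraries. It was 1, Nanos2 alone, without Δ93 replicate 2, 4 or 5. It was 2 without Δ93 replicate 3 or Δ225 replicate 5, 3 without Δ225 replicate 2, 3 or 6, and 6 without Δ93 replicate 6. In the fit of these groups alone it was 3, with Nanos2 not tested, where 18.3% of all genes were called. With single libraries left out, 15 to 28.3% of all genes were called. Levels per kilobase of exon put the genes on 1 scale. In Δ225 they were 21.7 ± 7.01 CPM per kilobase for Lefty2, 15.2 ± 7.88 for Dnd1, 11.5 ± 7.59 for Lefty1, 5.90 ± 4.66 for Nanos3, 3.01 ± 1.15 for Nodal, 2.16 ± 2.08 for Nanos2, 1.65 ± 0.549 for Tdgf1 and 0.379 ± 0.621 for Dnmt3l (SD, n = 6).

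Against WT, the genes of the signalling branch lay lower in Δ93 and Δ306, and none passed the test. In Δ93 the log2 fold changes were −1.94 for Nodal (SE 0.77, adjusted p 0.0964, edgeR), −2.46 for Lefty1 (SE 1.03, adjusted p 0.116), −2.65 for Lefty2 (SE 1.2, adjusted p 0.15) and −3.03 for Tdgf1 (SE 1.07, adjusted p 0.0624). In Δ306 they were −1.77 (SE 0.95), −2.56 (SE 1.31), −2.55 (SE 1.52) and −3.0 (SE 1.38), with adjusted p of 0.205 to 0.348. By edgeR 0 of 7 genes were called in Δ93 (5 at an unadjusted p under 0.05), where 14.1% of all genes were called. In Δ306 it was 0 of 7 (1 unadjusted), where 6.43% were called. DESeq2 also called 0 in both. Without Δ93 replicate 6, edgeR called 4 in Δ93 (Nodal, Lefty1, Lefty2 and Tdgf1, at −2.60 to −3.96), where 14% of genes were called. Without WT replicate 1 it called 1, Tdgf1 at −3.60 (adjusted p 0.045), where 6.25% were called. These comparisons, and those below, share the 3 WT libraries.

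In Δ225 and Δ104 none of the 7 tested genes was called against WT. In Δ225, Nodal, Lefty1, Lefty2 and Tdgf1 differed by 0.20, −0.03, 0.47 and −0.11 log2 units, each with a sign that turned in some alternatives. Nanos2 (3.35, SE 1.48) and Nanos3 (1.46, SE 0.63) had unadjusted p under 0.05 and adjusted p of 0.282 and 0.276 (edgeR). Over all genes 0.209% were called in Δ225 and 0.061% in Δ104. DESeq2 called 0 of the 7 in each, and in Δ104 0 had an unadjusted p under 0.05.

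**Figure D2:**
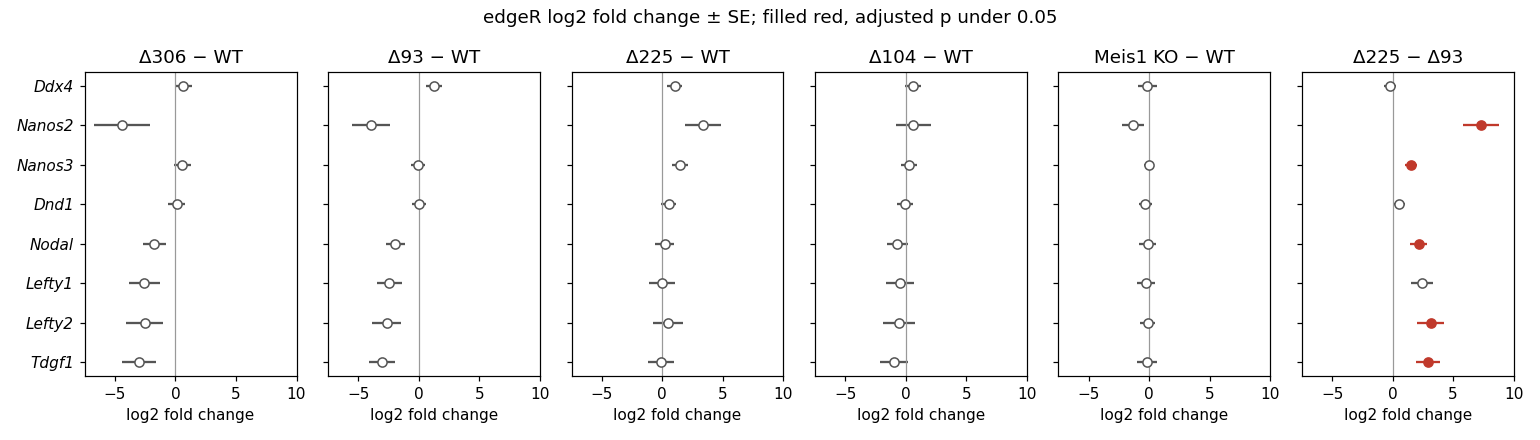
Log2 fold change (horizontal axis, in log2 units) of Ddx4 and the 7 tested genes (vertical axis) in 6 comparisons by edgeR, with bars of 1 standard error; filled red points have an adjusted p under 0.05. Red points occur for Nanos2, Nanos3, Nodal, Lefty2 and Tdgf1 in the panel of Δ225 against Δ93, where Ddx4 lies at −0.24, and in no other panel drawn.

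Between the other pairs of deletions none of the 7 tested genes was called. Δ225 against Δ104 called 0 of 7 by edgeR (2 at an unadjusted p under 0.05, Nanos2 and Nanos3), where 0.645% of all genes were called. Δ104 against Δ306 called 0 (1 unadjusted, Nanos2), where 0.0654% were. Δ93 against Δ306 called 0 (0 unadjusted), where 0.0785% were, and Δ93 against Δ104 called 0 (1 unadjusted, Nanos2), where 0.0523% were. DESeq2 called 0 in all 4. Without Δ104 replicate 4, Nanos2 was called between Δ225 and Δ104, where 2.44% of all genes were called.

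The range within Δ104 was wide. Per 1000 Ddx4 counts, replicates 1 to 4 had 3.94, 19.6, 75.5 and 59.3 of Nodal, 6.19, 67.0, 213 and 327 of Lefty1, 3.00, 156, 746 and 495 of Lefty2, and 0.562, 10.1, 43.7 and 49.9 of Tdgf1. Replicate 1 was the lowest in all 4 genes, and replicates 3 and 4 were the highest 2 in all 4. The summed level of 5 Sertoli markers in the same libraries was 38.0, 343, 858 and 1706 CPM. The sum of 5 pre-granulosa markers was 646, 312, 131 and 58.8 CPM. The part of these markers in the germ-cell values was not tested.

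**Figure D3:**
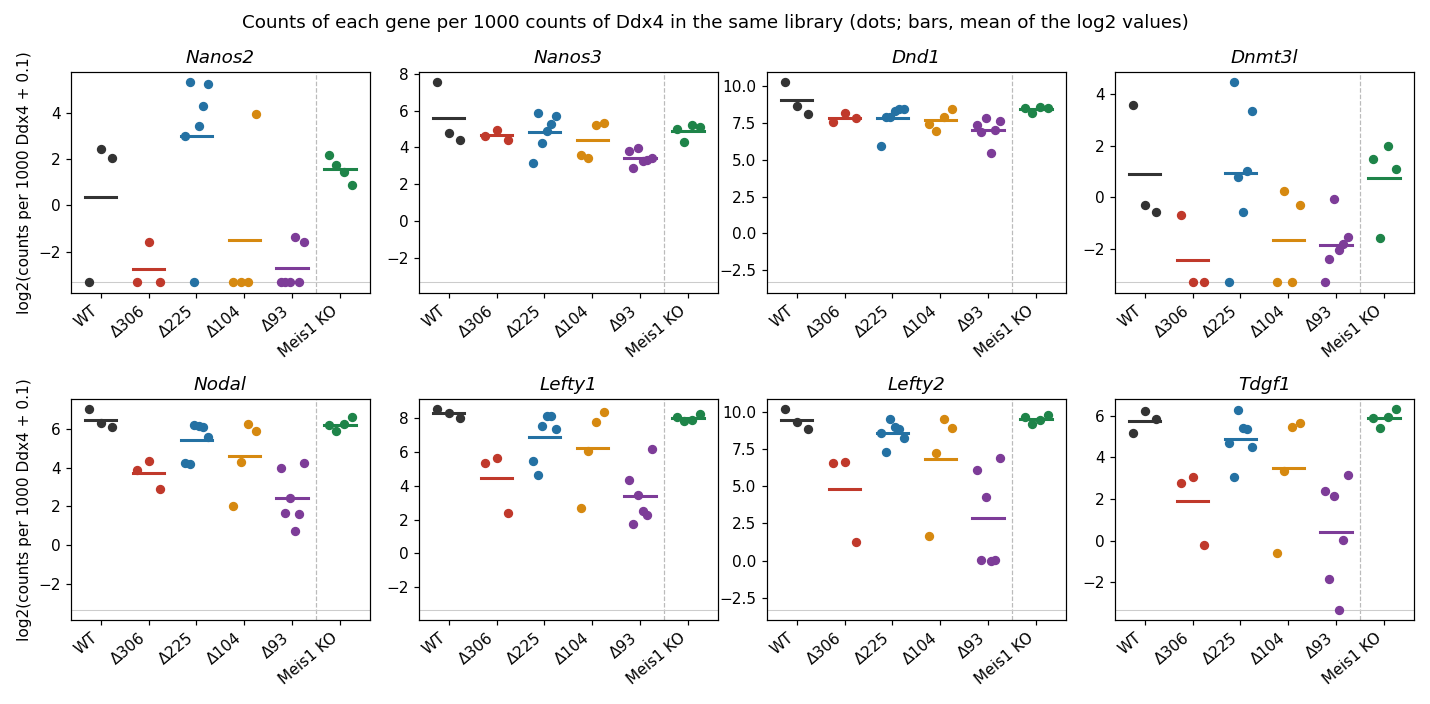
Counts of each gene per 1000 Ddx4 counts of the same library, as log2(value + 0.1) on the vertical axis, by group on the horizontal axis; dots are libraries, bars are means of the log2 values, and the grey line marks 0 counts. On this scale WT replicate 1, the leftmost WT dot, lies above the other WT libraries for Nodal, Lefty1 and Lefty2, and all 6 Δ93 libraries lie below the 3 WT libraries for Nodal, Lefty1, Lefty2 and Tdgf1.

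Scaling to Ddx4 set the wild-type libraries beside each other for the signalling genes. Nodal was at 129, 79.3 and 68.5 counts per 1000 Ddx4 in WT. It was at 14.5, 20.2 and 7.47 in Δ306 and at 15.9, 3.09, 5.28, 1.57, 2.94 and 19.0 in Δ93. Δ225 libraries had 19.1, 18.2, 74.7, 70.3, 68.2 and 48.4. The WT libraries lay above all Δ306 and Δ93 libraries, and Δ225 held both levels, with replicates 1 and 2 low. Lefty1 was at 365, 309.5 and 255 in WT and at 3.27 to 72.6 in Δ93 (median 8.14). Lefty2 was at 1188, 637 and 469.8 in WT and 0.858 to 119 in Δ93 (median 10.2). Tdgf1 was at 35.3, 73.6 and 56.1 in WT and 0 to 8.61 in Δ93 (median 2.60). These ranges of Δ93 and WT did not overlap. Such a gap was common, since 31.3% of 22940 genes had non-overlapping groups on this scale, 31.2% with Δ93 lower. Without WT replicate 1 the share was 33.4%, again 31.2% with Δ93 lower.

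As log2 ratios to Ddx4 with a prior of 0.1 CPM, Δ93 minus WT was −3.94 for Nodal, −4.78 for Lefty1, −6.30 for Lefty2 and −4.78 for Tdgf1, each lower in 6 of 6 libraries than in all 3 WT libraries. The median difference over all genes on this scale was −2.21. Without WT replicate 1 the 4 differences were −3.61, −4.64, −5.93 and −4.84, and the median over all genes was −0.69. The two-sided exact permutation p was 0.0238 for each, the smallest that 3 against 6 libraries allow, and 0.131 after Benjamini-Hochberg adjustment over 88 tests. Nanos3 (−2.16) and Dnd1 (−1.98) had the same exact p. Both rest in part on WT replicate 1, where Nanos3 was at 188 and Dnd1 at 1241 per 1000 Ddx4, against 27.5 and 21.1, and 399.6 and 280.5, in the other WT libraries. In Δ306 minus WT the differences were −2.76, −3.75, −4.53 and −3.72 for the 4 signalling genes, with non-overlapping groups and an exact permutation p of 0.1, the smallest that 3 against 3 allow (adjusted 0.244). Over all genes the median there was −1.55, and 7.48% did not overlap. Leaving out WT replicate 1 made the 4 values −2.42, −3.60, −4.16 and −3.78, beside a median of −0.05. Then 19.8% of all genes did not overlap, 7.34% with Δ306 lower. Between Δ225 and Δ93 the exact p was 0.00216 for Lefty2 (5.45) and Nanos2 (4.31) and 0.00433 for Nodal (2.83) and Tdgf1 (3.71), each adjusted to 0.0952. There 4.64% of all genes did not overlap and their median difference was 0.31. In the Nanos2 value, Δ225 replicate 3 with its 0 counts enters as the prior over its Ddx4 level. It ranked above Δ93 libraries that also had 0 counts only because its Ddx4 level was lower. The Nanos2 groups overlapped in CPM, so their separation on this scale, and with it the exact p for Nanos2, came from the prior. Of 88 such tests, 0 passed the threshold after adjustment, by the permutation test.

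Nanos2 cannot be read per germ cell in WT replicate 1. With 170 Ddx4 counts, 3 Nanos2 counts would equal 17.6 per 1000 Ddx4, above the 5.25 and 4.00 measured in the other WT libraries. Δ104 replicate 3 has such a floor at 5.96 and Δ225 replicate 3 at 2.46. In Δ225 replicate 3, which had 0 Nanos2 counts, Nodal was at 74.7 and Lefty2 at 755 per 1000 Ddx4, the highest of the 6 libraries. Δ225 replicate 2 was the reverse, with the most Nanos2 (40.1) and the least Nodal (18.2), Lefty1 (24.2), Lefty2 (159) and Tdgf1 (8.27). In Δ225 replicates 2 and 3, Nanos2 and Nodal thus lay at opposite ends of the Δ225 range. This does not extend to the other genes of the RNA and DNA branch or to the other Δ225 libraries.

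**Figure D4:**
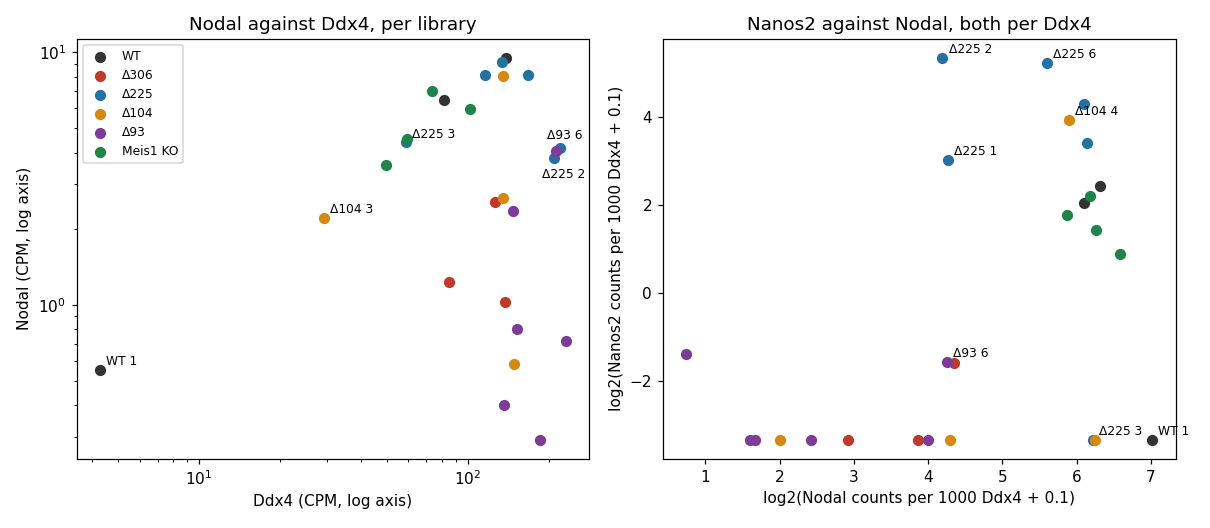
Left, Nodal against Ddx4, both in CPM on log axes, 1 dot per library; right, Nanos2 against Nodal, both as log2 of counts per 1000 Ddx4 counts + 0.1. On the left WT replicate 1 has 4.27 CPM of Ddx4 and 0.553 CPM of Nodal, while Δ93 libraries combine 136 to 232 CPM of Ddx4 with 0.292 to 4.06 CPM of Nodal; on the right Δ225 replicate 2 pairs the highest Nanos2 with Nodal lower than in WT, and Δ225 replicate 3 has 0 Nanos2.

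A fit across all genes with each library's Ddx4 count as its library size was dominated by WT replicate 1. It called 73% of all genes in Δ306 and 87.2% in Δ93 against WT, nearly all lower, with medians of −3.07 and −3.71 over all genes, so its calls of members there carry no weight. Without WT replicate 1, a choice made after the data were seen, 1.38% of genes were called in Δ93. Of the 8 genes, 4 were lower: Nanos2 by −5.26 (adjusted p 0.0342), Nodal by −3.22 (0.0333), Lefty1 by −3.85 (0.0315) and Tdgf1 by −4.35 (0.0303), by edgeR. Lefty2 (−3.98, adjusted p 0.0745), Nanos3 (−1.13, 0.418), Dnd1 (−1.21, 0.337) and Dnmt3l (−1.2, 0.616) were not called. In Δ306 the same fit called 0% of genes by edgeR (1206 of 23763 at an unadjusted p under 0.05), with −2.39 for Nodal and −3.63 for Tdgf1. Between Δ225 and Δ93, with all libraries, 2.3% of genes were called, among them Nanos2 (7.31, adjusted p 6.26e-05), Lefty1 (3.04, 0.0227), Lefty2 (3.63, 0.00878) and Tdgf1 (3.49, 0.0189). Nodal (2.64, adjusted p 0.0605) and Nanos3 (1.64, 0.399) were not. Between Δ225 and Δ306, 0.371% of genes were called, and Nanos2 was among them (7.31, adjusted p 0.031).

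Sums of somatic-cell markers differed between the same groups. The sum of 5 Sertoli markers was 1719 to 2170.3 CPM in WT, 55.4 to 780.1 in Δ93, 83.0 to 452 in Δ306 and 454 to 1955 in Δ225. The 5 pre-granulosa markers summed to 49.9 to 96.9 CPM in WT, 404 to 1020.6 in Δ93, 341 to 679.9 in Δ306 and 56.2 to 97.3 in Δ225. Fetal Leydig markers summed to 902 to 1554 CPM in WT, 50.1 to 314 in Δ93, 39.8 to 91.3 in Δ306 and 452 to 3044 in Δ225. By edgeR, 0 of 5 Sertoli markers were called against WT in Δ93 or Δ306, where 14.1% and 6.43% of all genes were called. The 5 pre-granulosa markers were all called higher in both. Of the 5 Leydig markers, 4 were called lower in Δ93 and 3 in Δ306. Germ-cell markers overlapped, at 542 to 979.8 CPM in Δ93 and 358 to 1223 in Δ225. No marker of these lists was at 0 in any library. Δ93 replicate 6, the Δ93 library with the most Nodal, Lefty1, Lefty2 and Tdgf1, also had the highest Sertoli sum of Δ93 (780.1 CPM) and the lowest pre-granulosa sum (404 CPM). The part of these cells in the germ-cell values was not tested.

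Genes of meiotic entry, a programme that NANOS2 is known to repress, were called higher than in WT in Δ93 and Δ306. The median log2 fold change over 11 such genes was 3.94 in Δ93 against WT, beside 0.06 over all genes. Of the 11, 10 rose there, where 14.1% of all genes were called. Examples were Stra8, which licenses meiotic entry (8.78, SE 1.79, adjusted p 0.00342, edgeR), the cohesin Rec8 in the meiotic form (5.04, SE 0.81, adjusted p 9.05e-04) and Meioc (5.17, SE 1.14, adjusted p 0.00543). In Δ306, where 6.43% of all genes were called, 3 of 11 rose: Stra8 (7.57), Rec8 (4.41) and Meioc (3.82). WT replicate 1 was the library with few germ cells or little germ-cell RNA. Without it, 5 of 11 rose in Δ93 (Dmc1, Meioc, Meiosin, Rec8 and Stra8), where 6.25% of all genes were called. The median over the list was then 3.51. In Δ306, 1 rose without it (Rec8), where 2.25% of all genes were called. Between Δ225 and Δ93, where 20.8% of all genes were called, 7 of 11 were lower in Δ225. Stra8 was at −5.28, Rec8 at −3.97 and Meiosin at −3.90 (adjusted p 0.00167, 9.19e-05 and 3.05e-04, edgeR). Against Δ306, where 13.2% of all genes were called, 2 were lower in Δ225, Stra8 (−4.07) and Rec8 (−3.34). Against Δ104, where 0.645% were called, 1 was lower in Δ225, Rec8 (−2.56). Against WT, with replicate 1 kept, the median over the 11 was 1.21 in Δ225 and 1.45 in Δ104. By edgeR 0 of 11 were called in either (3 at an unadjusted p under 0.05 in each), where 0.209% and 0.061% of all genes were. Ddx4 lay at 1.01 and 0.59 in the same comparisons. In Δ93 and Δ306 against WT, with replicate 1 kept, Ddx4 lay at 1.25 and 0.64, and it was called in none of these comparisons. The mean of Nanos2 was higher than in WT in both Δ225 and Δ104, in Δ104 from replicate 4 alone. Δ93 lay above Δ306 with a median of 1.54 and 0 of 11 called (2 unadjusted), where 0.0785% of all genes were. Nanos2 was near 0 in both Δ93 and Δ306. The part of Nanos2 in the levels of these meiotic genes was not tested.

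Other genes of the NODAL pathway were called about as often as all genes, or less, in the 3 comparisons given here. Of 16 listed receptors, SMADs, processing enzymes and targets, 14 were tested. In Δ93 against WT 0 were called by edgeR (4 at an unadjusted p under 0.05), where 14.1% of all genes were called. Between Δ225 and Δ93, 3 of the 14 were called, where 20.8% of all genes were. The transcription factor gene Eomes, a known NODAL target in the embryo, was higher in Δ225 (2.25, SE 0.57, adjusted p 0.00873, edgeR). The convertase gene Pcsk6 was lower (−0.71, SE 0.16, adjusted p 0.00326, edgeR). The median of the 14 was 0.07, against 0.00 over all genes. Against Δ306, 2 of the 14 were called, Eomes (2.87) and Smad4 (0.43), both higher in Δ225, where 13.2% of all genes were called. Receptor genes were not among the calls of these comparisons.

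Among 14 genes of the CCR4-NOT complex and its adaptors, through which NANOS proteins act, 1 was called in Δ93 against WT, Tob1 at 0.74 (adjusted p 0.0268, edgeR), a share below the 14.1% of all genes called there. In Meis1 KO, where 1.8% of all genes were called, 2 of the 14 were called higher than in WT by edgeR. They were Tob1 (0.66, adjusted p 0.0236) and Cnot6 (0.38, adjusted p 0.0426). Between Δ225 and Δ93, where 20.8% of all genes were called, 1 of the 14 was, Cnot6l. It was higher in Δ225 by 0.46 (adjusted p 0.0152, edgeR). Against Δ306, where 13.2% were called, 2 were higher in Δ225, Cnot6l (0.66, adjusted p 0.0106) and Tob2 (0.61, adjusted p 0.0169). Of 12 partners of DNMT3L in DNA methylation and piRNA-guided silencing, 2 were called in Δ93 against WT, where 14.1% of all genes were. Tex15 rose (2.72, SE 0.70, adjusted p 0.0137, edgeR) and Dnmt3b fell by 0.58 (adjusted p 0.0164). Between Δ225 and Δ93, 2 of the 12 were called, where 20.8% of all genes were. Spocd1 (3.31, adjusted p 0.0175) and Morc1 (2.59, adjusted p 0.0198), which act with the nuclear piRNA pathway, were higher in Δ225 by edgeR. The median over the 12 was 0.61 in Δ93 against WT, beside 0.06 over all genes, and 0.09 in Δ225 against Δ93. Without WT replicate 1 none of these calls in Δ93 against WT held for Tob1, Tex15 or Dnmt3b. Cnot3 was then called lower in Δ93, where 6.25% of all genes were called, and in Δ306, where 2.25% were.

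Across the 22 libraries of the deletion table the signalling genes went together. Pearson's r of log2 CPM was 0.954 between Nodal and Lefty1, 0.913 between Nodal and Lefty2, 0.954 between Nodal and Tdgf1, and 0.918 to 0.953 among the others. Nanos2 had 0.811 with Nanos3 and 0.613 to 0.703 with the 4 signalling genes. These values are descriptions over libraries that share germ-cell content, groups and depth. Of 16152 genes compared, the most alike to Nodal were Zfp819 (0.985), Nphs1 (0.968) and Kirrel2 (0.962). Lefty2 and Tdgf1 were both most like Otx2 (0.966 and 0.956), and Lefty1 was most like Nodal. Nanos2 was most like Fbxo41 (0.969), Egr4 (0.945) and Dgka (0.932), Nanos3 like Uchl1 (0.933), and Dnd1 like Arid3b (0.919).

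In Meis1 KO none of the tested genes was called against WT. MEIS1 is a TALE-class homeodomain protein that binds DNA. In the Meis1 table, where WT was counted separately, Nodal was at 3.59, 5.97, 4.53 and 7.04 CPM in the KO and 0.540, 6.95 and 10 in WT. Lefty2 was at 40.6, 60.1, 42.8 and 65.6 CPM against 7.43, 74.4 and 89.5. Nanos2 was at 0.223, 0.336, 0.153 and 0.129 CPM in the KO and 0, 0.465 and 1.15 in WT. All groups overlapped. Levels cannot be set across the tables, since the same WT libraries were counted differently in them. Lefty2 had 275, 3519 and 3197 counts in WT replicates 1 to 3 here and 202, 2667 and 2469 in the deletion table. Dnd1 had 8.19 to 11.7% more counts here, and Nanos2 in WT replicate 3 had 41 against 21.

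By edgeR 0 of 7 genes were called in Meis1 KO (0 at an unadjusted p under 0.05), where 1.8% of all genes were called, and DESeq2 called 0 of the 6 to which it gave an adjusted p. Log2 fold changes ran from −1.35 (SE 0.92) for Nanos2 to −0.05 for Nanos3. Without WT replicate 1, 4 were lower in the KO: Nanos2 by −1.92 (adjusted p 0.0365), Lefty1 by −0.82 (0.0467), Dnd1 by −0.80 (0.0221) and Lefty2 by −0.65 (0.0484), where 12.9% of genes were called. Ddx4 itself then lay at −0.72 (adjusted p 0.107). Scaled to Ddx4 counts without that library, these 4 were at −1.13, −0.13, −0.11 and 0.05, and none was called (adjusted p 0.239 to 0.926, edgeR). On that scale 1.31% of all genes were called, and the median over all genes was 0.74, above each of these 4 values. Per 1000 Ddx4 counts, Nodal was at 58.6 to 96.1 in the KO and at 118, 79.5 and 68.2 in WT.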

How the data were processed

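Counts per gene were deposited by the authors as raw counts in tables covering 26 samples of E13.5 XY gonads; STAR (2.7.10a where a version is given), featureCounts, Subread, DESeq2 and mm10 are named in the submitters' processing notes, without order or role. The deposited comparison table gives log2 fold changes and adjusted p-values that the authors computed; it was used for gene names and for Dnmt3l. The counts were used as deposited. Genes passing edgeR's filterByExpr (22941 of 57186; 16791 of 31053 in the Meis1 table) were fitted with edgeR 4.0.16 (R 4.3.3): TMM factors, quasi-likelihood test, 1 term per group, Benjamini-Hochberg adjustment over all genes tested. The deletion table was fitted whole, so that all groups share the estimate of spread (17 residual degrees of freedom; 5 in the Meis1 table). Ratios to Ddx4 were tested with two-sided exact permutation tests (scipy 1.17.1), and with edgeR taking Ddx4 counts as library size.

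Alternatives were DESeq2 1.42.0, RLE or no composition factor, no filter, a replicate block, the compared groups alone, priors, other germ-cell genes, and leaving out each library. Numbers were taken to pair samples only where every same-numbered pair's deviations from the group means correlated above 0.1, which held in no comparison. All pairs were positive for Δ306 and WT (0.047 to 0.214), Δ225 and Δ104 (0.0708 to 0.33) and Δ93 and Δ104 (0.0297 to 0.104). The fit, tested on simulated data for Δ93 against WT over 22941 genes, recovered 46% of 2-fold and 98% of 8-fold changes, with 13 false among 177 calls. Recovery for the 8 genes themselves was not tested. In the measured counts of Δ93 against WT, Tdgf1 at −3.03 log2 units (SE 1.07) and Lefty2 at −2.65 (SE 1.2) were not called. No replicates agreed within counting noise (chi-square per gene 9.65 to 342 over 51 pairs). Intervals and floors of 3 counts cover counting error only.

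The genes and lists were chosen with earlier results of these data known. From each list at most 3 called genes per comparison, by size of change, are named with values, except genes lost or gained without WT replicate 1, which were named after their values were seen; likeness names the 3 genes of highest Pearson correlation (mean level of at least 1 CPM). One germ-cell marker, Gcna, was not matched. The values of 1 listed gene are not reported here.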

Additional observations from a re-analysis of the deposited data

Results flagged for a closer look

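Dixon's criterion was applied to each gene in each group of 4 or 6 libraries, in CPM and per 1000 Ddx4 counts. Of these 64 tests, 8 had a library far from the others. A rate of about 1 in 20 holds for independent tests of normal values. These tests share counts between the scales, and some groups held many values of 0. In Δ104, replicate 4 held Nanos2 at 2.04 CPM, or 15.1 counts per 1000 Ddx4, while the other 3 libraries were at 0. The same library held Nanos3 at 5.35 CPM, against 1.1 to 1.78 in the others. In Δ225, replicate 2 held Dnmt3l at 4.69 CPM, against 0 to 1.68. In Δ93, replicate 6 held Lefty1 at 15.5 CPM, against 0.652 to 2.92, and at 72.6 per 1000 Ddx4, against 3.27 to 19.8. Dnmt3l in Δ93 replicate 3 was at 0.856 per 1000 Ddx4, against 0 to 0.239, from 6 counts. Dnd1 in Meis1 KO replicate 2 was at 288 per 1000 Ddx4, below the 361 to 375 of the other 3.

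The effects of 2 deletions differed by the test of the difference itself (edgeR, adjusted over all genes) in 6 cases. Δ225 minus Δ93 was 7.32 log2 units for Nanos2, 1.52 for Nanos3, 2.15 for Nodal, 3.12 for Lefty2 and 2.93 for Tdgf1, in a comparison where 20.8% of all genes were called. Δ225 minus Δ306 was 7.79 for Nanos2, where 13.2% were called.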

How the results depend on the processing

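The number of genes called between Δ225 and Δ93 (5) was 3 in the fit of those groups alone (18.3% of all genes called) and 1 to 6 with single libraries left out (15 to 28.3%). Between Δ225 and Δ306 (1) it was 2 with no low-count filter (4.98% of all genes), 4 with those groups alone (9.7%) and 0 to 1 with single libraries left out (3.71 to 14.8%). In Δ93 against WT (0) it was 2 with the replicate block (14.6%), 1 without both libraries lowest in Ddx4 (WT replicate 1 and Δ104 replicate 3, added after the data were seen; 7.06%) and 0 to 4 with single libraries left out (6.25 to 15.7%). It was 0 to 1 in Δ225 against Δ104 (0.0394 to 2.44%) and 0 to 4 in Meis1 KO (0.0899 to 12.9%) with single libraries left out. Apart from these, from the end of the Nanos3 call (Δ225 against Δ93, adjusted p 0.0729) and from the Lefty1 call gained there, the replicate block changed no call; the causes were not tested.

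All values that changed sign had not been called. With the replicate block they were −0.20 for Nodal in Δ225 against WT, −1.96 for Nanos2 and 0.0238 for Dnd1 in Δ104, −0.10 for Dnd1 in Δ93, and 0.23, 0.22, 0.24 and 0.29 for Nodal, Lefty1, Lefty2 and Tdgf1 in Meis1 KO. Without both libraries lowest in Ddx4 they were −0.38 for Dnd1 in Δ306, −0.49 for Dnd1 in Δ93, and −0.33 for Nodal and −0.0423 for Lefty2 in Δ225. Lefty1 in Δ225 was 0.00398 with no composition factor, and Dnd1 in Δ93 −0.0173 with no filter. With single libraries left out, Δ225 against WT ran from −0.33 to 0.86 for Nodal, −0.56 to 0.62 for Lefty1, −0.0508 to 0.99 for Lefty2 and −0.68 to 0.49 for Tdgf1. Dnd1 ran from −0.40 to 0.52 in Δ306, −0.63 to 0.32 in Δ104 and −0.47 to 0.45 in Δ93. Nanos2 in Δ104 ran from −6.47 to 1.13, Lefty1 there from −1.95 to 0.12, and Nanos3 from −0.46 to 0.62 in Δ104 and −0.43 to 0.32 in Δ93. Meis1 KO ran from −0.41 to 0.32 for Nanos3, −0.80 to 0.11 for Dnd1, −0.68 to 0.48 for Nodal, −0.82 to 0.33 for Lefty1, −0.65 to 0.35 for Lefty2 and −0.73 to 0.42 for Tdgf1.

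For log2 ratios to Ddx4, single libraries left out gave −1.57 to 0.0533 for Nanos3 in Δ306, −1.36 to 0.26 for Nanos3 and −1.29 to 1.08 for Dnmt3l in Δ225 against WT, and −0.16 to 0.36 for Dnd1 in Δ225 against Δ306. In Meis1 KO they gave −1.30 to 0.31 for Nanos3, −1.28 to 1.08 for Dnmt3l, −0.46 to 0.0312 for Nodal, −0.64 to 0.0531 for Lefty2 and −0.12 to 0.17 for Tdgf1. With a prior of 0.5 CPM, Nanos2 in Δ225 against WT was −0.12 and Tdgf1 in Meis1 KO −0.31. With 3 germ-cell genes as scale, Dnd1 in Δ225 against Δ306 was 0.15 and Tdgf1 in Meis1 KO −0.19. With Ddx4 counts as library size, Nanos2 in Δ104 was 0.0603 and Dnd1 in Δ225 against Δ306 0.16. The same without WT replicate 1 gave 0.0658 for Nanos3 in Δ306, 0.0134 for Nanos3 in Δ104, 0.51 for Nanos3 and 3.23 for Dnmt3l in Δ225, and 0.32, 0.0389, 0.0504 and −0.0184 for Nanos3, Nodal, Lefty2 and Tdgf1 in Meis1 KO. Of 1402 recomputed differences of single genes, 1247 kept their direction and side of the threshold, 83 changed sign, 39 gained a call and 33 lost one. Depth limits Nanos2 and Dnmt3l, which rest on few counts outside Δ225.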
